A study of Sus scrofa with 13 samples.

Results

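Genes of the mitotic spindle and of chromosome segregation were followed in the vein of pig arteriovenous fistulas, which carries arterial flow after it is joined to an artery for haemodialysis access. A list of 40 gene symbols was matched to the protein-coding rows of the deposited table by gene name, and 34 of the 40 were found among 30477 rows, of which 20288 are protein-coding. A further 2, BUB1B and NUSAP1, are in the table without a symbol and were recognised by their identifiers. They are described apart and are not in any count or mean of the 34. The other 4 (CCNA2, AURKA, PTTG1 and MKI67) were not matched and were not analysed here.

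The treated group, called 1,25 NP, comprised 8 libraries given 1α,25-dihydroxyvitamin D3, the hormonal form of vitamin D, with the polymer PLGA and a hydrogel. The vehicle group comprised 5 libraries given PLGA and hydrogel without the hormone. The labels give Sus scrofa and vein for every sample and state neither age nor strain nor the time of harvest, and their protocol text describes a mouse antibody experiment, so it was not used to describe the animals. Column names of the table add an animal code and a sex: 3 females and 5 males in 1,25 NP, 3 females and 2 males in vehicle. The title of the series names venous neointimal hyperplasia, the overgrowth of cells in the inner vein wall.

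Cells enter mitosis when CDK1 is bound by B-type cyclins. Chromosomes are then compacted by condensin, captured at their centromeres by kinetochores, and moved by spindle microtubules and kinesins. The spindle checkpoint holds back the anaphase-promoting complex until every kinetochore is attached, after which cyclins and securin are destroyed and sister chromatids part. Most of these genes are transcribed late in the cell cycle, under FOXM1 and the MuvB complex, and are nearly silent in resting cells. In a bulk vein sample, a change in the number of dividing cells and a change in RNA per dividing cell cannot be told apart.

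The 34 mitotic genes were higher on average in 1,25 NP veins, but no single gene passed the test across the table. Library totals, recovered from the values, lay between 30261776 and 50271231 reads. The values are RPKM, reads scaled to gene length and library total, and every difference below is on the log2(RPKM + 0.5) scale, 1,25 NP minus vehicle. All 34 passed the filter of 0.5 RPKM in 5 libraries, and all 34 had a difference above 0, where 43.8% of the 14579 genes tested did. The median difference was 0.94 for the 34 and -0.071 for all genes tested. A difference above 0.5 was seen for 27 of 34, against 8.05% of all genes tested. In limma, 0 of 34 passed an adjusted p of 0.05, as did 0% of all genes tested, and the adjusted p-values of the 34 ran from 0.795 to 0.984.

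At an unadjusted p under 0.05, a level that makes no call, limma placed 12 of the 34 genes higher and 0 lower in 1,25 NP veins, with 0.803% of all genes tested higher and 3.21% lower. This count depended on which library was left out. It was 15 without 1,25 NP library P22 and 15 without P23, against 1.01% and 1.63% of all genes tested. Without vehicle library P16 it was 13, against 0.816%. It was 27 without 1,25 NP library P28, against 6.46% of all genes tested there (34 of 34 above 0, against 49.5%), and 19 without vehicle library P14, against 1.06%. Without vehicle libraries it was 1 (P13, against 0.269% of all genes, with 33 of 34 above 0, against 34.7%), 2 (P15, against 0.887%) and 3 (P17, against 0.49%). Leaving out other 1,25 NP libraries gave 5 (P21), 3 (P24), 4 (P31), 3 (P32) and 4 (P42), where 0.609%, 0.345%, 0.489%, 0.331% and 0.401% of all genes tested were higher at that level, in the same order. With median-of-ratios scaling it was 24, against 3.31% of all genes tested, and over the whole table the genes at that level then numbered 483 higher and 253 lower, against 117 higher and 468 lower as deposited. In none of the 34 genes did the 2 groups separate, since at least 1 treated library always lay within or below the vehicle range, and 0.0137% of all genes tested were fully higher.

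The mean of the 34 genes per library shows how the animals were spread. In 1,25 NP veins it was 3.22 (P24), 3.03 (P32), 2.36 (P42), 2.34 (P21), 2.09 (P31), 1.57 (P23), 1.54 (P22) and 0.50 (P28). In vehicle veins it was 1.86 (P14), 1.69 (P16), 1.08 (P17), 0.94 (P15) and 0.70 (P13). Thus 5 of 8 treated libraries lay above the highest vehicle library, a pair lay within the vehicle range, and P28 was the lowest of all 13. The group means were 2.08 ± 0.88 (SD, n = 8) in 1,25 NP and 1.25 ± 0.50 (SD, n = 5) in vehicle, a difference of 0.83. No p is given for this mean, because the genes were chosen with earlier results of these data known.

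**Figure D1:**
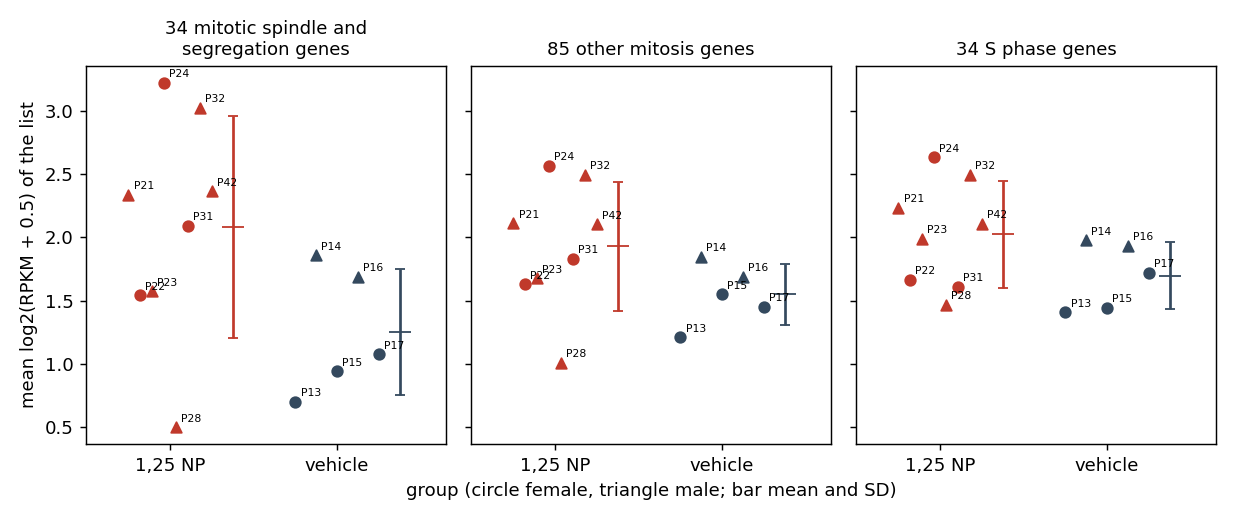
Mean log2(RPKM + 0.5) per library for the 34 mitotic spindle and segregation genes (left), 85 other mitosis genes (middle) and 34 S phase genes (right), with 1,25 NP in red and vehicle in dark blue, circles for females, triangles for males, and bars for the group mean and SD. For the 34 genes, 1,25 NP libraries span 0.50 to 3.22 and vehicle libraries 0.70 to 1.86, with P28 below every vehicle library.

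The same few animals set the extremes for most genes. P24 was the highest of the 13 libraries for 25 genes and P32 for 8, and P42 for BUB3. P28 was the lowest for 21, P15 for 6, P13 for 5 and P31 for 2. In P21, P24 and P32 all 34 genes lay above their vehicle mean, in P22 and P42 31 did, in P23 28 and in P31 27, whereas in P28 a single gene did, CDC20. Recovered reads on the 34 genes together ran from 6475 in P28 to 79754 in P32, and from 10474 (P13) to 22813 (P16) in vehicle.

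**Figure D2:**
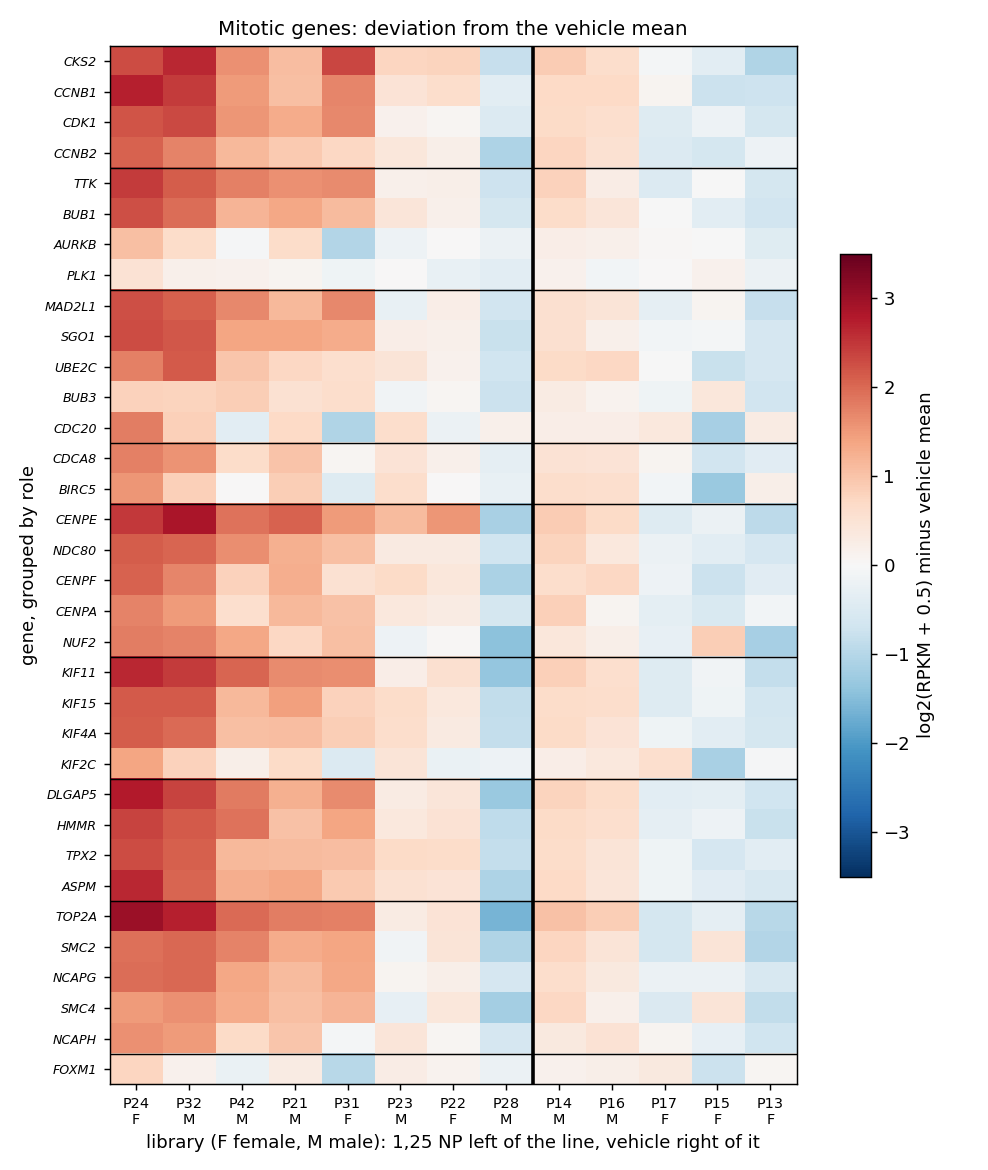
Deviation of each of the 34 genes (rows, grouped by role) from its vehicle mean on the log2(RPKM + 0.5) scale, for 8 libraries of 1,25 NP left of the line and 5 of vehicle right of it, each group ordered by its mean over the 34 genes; red is above and blue below the vehicle mean. P24 and P32 are red in nearly every row and P28 is blue in nearly every row. In P31 most rows are red, but PLK1, AURKB, CDC20, KIF2C, BIRC5, FOXM1 and, slightly, NCAPH are below the vehicle mean. In P15 most rows are blue, CDC20, KIF2C, BIRC5 and FOXM1 among them, whereas PLK1 and AURKB are near the vehicle mean.

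Among the cyclin B and CDK1 genes, the median difference was 1.18, and each of the 4 measured was higher in 1,25 NP veins. CCNB1, the cyclin that activates CDK1 at mitotic entry (ENSSSCG00000029326, chromosome 16, 47338110 to 47348381, positions as deposited), ran from 2.00 through a median of 7.45 to 20.9 RPKM in 1,25 NP veins, and was at 1.45 (P13), 4.76 (P14), 1.43 (P15), 4.80 (P16) and 2.94 (P17) RPKM in vehicle veins. The treated libraries P28, P23 and P22 were inside the vehicle range and the other 5 above it. Its difference was 1.27 (SE 0.48, limma, adjusted p = 0.795), with 7 of 8 treated libraries above the vehicle mean.

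CDK1, the kinase itself (ENSSSCG00000010214, chromosome 14, 64233988 to 64395453), ran from 0.261 through 2.39 to 4.76 RPKM in 1,25 NP veins, against 0.196 (P13), 1.21 (P14), 0.437 (P15), 1.11 (P16) and 0.278 (P17) RPKM in vehicle veins. Here too P28, P22 and P23 were no higher than the upper vehicle libraries and the other 5 exceeded them, with a difference of 1.10 (SE 0.47). CKS2, a small subunit that binds CDK1 and aids its docking on substrates (ENSSSCG00000021161, chromosome 14, 904793 to 910291), ran from 2.94 through 14.9 to 36.7 RPKM in 1,25 NP veins and had 2.40 (P13), 10.6 (P14), 4.14 (P15), 8.75 (P16) and 5.21 (P17) RPKM in vehicle veins. It had a difference of 1.33 (SE 0.52) and was among the 3 most abundant of the 34, with TOP2A and TPX2. The second B-type cyclin, CCNB2, averaged 3.98 ± 2.66 RPKM in 1,25 NP and 1.89 ± 1.04 in vehicle veins (SD, n = 8 and 5), a difference of 0.76 (SE 0.45). None of these passed in limma (adjusted p = 0.795 for CDK1, CKS2 and CCNB2).

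The 4 mitotic kinases measured differed among themselves, from 0.026 for PLK1 to 1.15 for TTK. TTK, known as MPS1, the kinase that starts checkpoint signalling at unattached kinetochores (ENSSSCG00000004466, chromosome 1, 86076583 to 86125718), ran from 0.220 through 3.22 to 6.01 RPKM in 1,25 NP veins, against 0.288 (P13), 1.61 (P14), 0.697 (P15), 0.936 (P16) and 0.363 (P17) RPKM in vehicle veins. Its difference was 1.15 (SE 0.49), and the checkpoint kinase BUB1 had 0.98 (SE 0.43). PLK1, the polo kinase that acts at centrosomes and kinetochores, had 1.68 ± 0.436 RPKM in 1,25 NP and 1.62 ± 0.233 in vehicle veins (SD, n = 8 and 5), a difference of 0.026 with a 95% interval from -0.40 to 0.45. AURKB, the kinase of the chromosomal passenger complex, had 2.86 ± 1.45 and 2.39 ± 0.481 RPKM in 1,25 NP and vehicle veins, a difference of 0.12 with an interval from -0.54 to 0.77. With 1 library left out, the PLK1 difference lay between -0.044 (without P24) and 0.083 (without P28), and the AURKB difference between -0.018 (without P24) and 0.28 (without P31). Whether PLK1 or AURKB differed from TTK in their response was not tested.

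In the spindle checkpoint and anaphase group, all 5 measured members were higher, with a median of 0.76. SGO1, shugoshin, which protects centromeric cohesin (ENSSSCG00000011207, chromosome 13, 7137896 to 7153170), ran from 0.147 through 2.29 to 4.87 RPKM in 1,25 NP veins, against 0.236 (P13), 1.11 (P14), 0.550 (P15), 0.759 (P16) and 0.539 (P17) RPKM in vehicle veins. P28 lay below all vehicle libraries, P22 and P23 inside their range and the other 5 above, and the difference was 1.02 (SE 0.45, limma, adjusted p = 0.795). SGO1 rested on few reads, 17 in its lowest library. MAD2L1, the checkpoint protein that sequesters CDC20, had a difference of 1.03 (SE 0.49), and UBE2C, the ubiquitin-conjugating enzyme of the anaphase-promoting complex, 0.76 (SE 0.43). BUB3, a checkpoint protein that resting cells also express, had 4.11 ± 1.52 RPKM in 1,25 NP and 3.03 ± 0.940 in vehicle veins, a difference of 0.35 (SE 0.30) that was 0.18 without vehicle library P13.

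CDC20, the activator of the anaphase-promoting complex and the target of the checkpoint, was named after its values were seen. It ran from 1.17 through 4.10 to 11.4 RPKM in 1,25 NP veins, and was at 3.72 (P13), 3.59 (P14), 1.06 (P15), 3.60 (P16) and 3.99 (P17) RPKM in vehicle veins. P31 and P15 stood low in their groups, and the difference was 0.31 with an interval from -0.58 to 1.21 (limma, adjusted p = 0.813). It was 0.026 without vehicle library P15, 0.10 without P24 and 0.51 without P31.

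The chromosomal passenger subunits were CDCA8 and BIRC5. CDCA8, borealin, which helps to place the complex at centromeres (ENSSSCG00000032909, chromosome 6, 93750687 to 93765483), ran from 0.717 through 1.76 to 4.65 RPKM in 1,25 NP veins, against 0.657 (P13), 1.67 (P14), 0.455 (P15), 1.60 (P16) and 1.12 (P17) RPKM in vehicle veins. The groups overlapped: 4 of 8 treated libraries exceeded the highest vehicle library, and the difference was 0.68 (SE 0.36, limma, adjusted p = 0.795). BIRC5, survivin, had 2.98 ± 1.72 and 2.14 ± 1.10 RPKM in 1,25 NP and vehicle veins, a difference of 0.40 (SE 0.38) that was 0.073 without vehicle library P15 and 0.23 without P24.

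Centromere and kinetochore genes held the largest difference of the 34. CENPE, the kinesin that carries chromosomes to the spindle equator (ENSSSCG00000023296, chromosome 8, 117889009 to 117965792), had 8.56 (P21), 5.88 (P22), 4.22 (P23), 11.6 (P24), 0.488 (P28), 5.67 (P31), 15.1 (P32) and 7.64 (P42) RPKM in 1,25 NP veins, and 0.656 (P13), 3.56 (P14), 1.37 (P15), 2.97 (P16) and 1.10 (P17) RPKM in vehicle veins. All treated libraries but P28 lay above every vehicle library. The difference was 1.54, with an interval from 0.38 to 2.70 and the smallest p of the 34 (limma, unadjusted p = 0.0129, adjusted p = 0.795), and it was 1.92 without P28 and 1.31 without vehicle library P13. NDC80, which binds microtubules at the outer kinetochore, had a difference of 1.00 (SE 0.44), and its partner NUF2 had 0.64 (SE 0.51), with 5.80 RPKM in vehicle library P15 against 1.06 to 4.07 in the other vehicle libraries. The NUF2 difference was 0.35 without vehicle library P13. CENPA, the centromeric histone, had 0.75 (SE 0.37), and CENPF, a large kinetochore protein, 0.79 (SE 0.45).

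**Figure D3:**
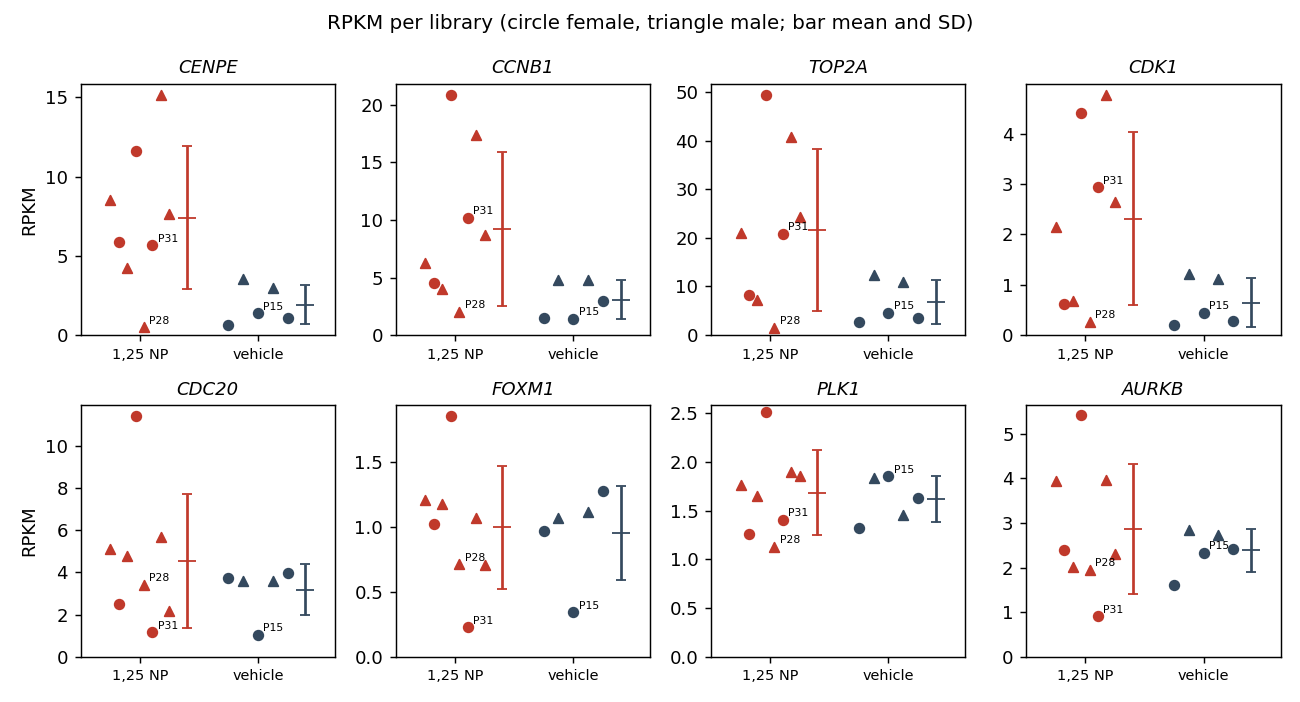
RPKM per library for 4 genes with differences above 1 (CENPE, CCNB1, TOP2A and CDK1, upper row) and 4 with small differences (CDC20, FOXM1, PLK1 and AURKB, lower row), 1,25 NP in red left of vehicle in dark blue, circles for females and triangles for males, with the group mean and SD; libraries P15, P28 and P31 are marked. For CENPE 7 of 8 treated libraries lie above all vehicle libraries, whereas PLK1 has 1.68 RPKM on average in 1,25 NP and 1.62 in vehicle veins.

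The spindle kinesins had differences of 1.23 for KIF11, which pushes the spindle poles apart (SE 0.58), 0.98 for KIF15, 0.90 for KIF4A, which works on chromosome arms and the midzone (SE 0.43), and 0.33 for the microtubule depolymerase KIF2C (SE 0.35). The KIF2C difference was 0.048 without vehicle library P15 and 0.18 without P24. KIF15, which backs up KIF11 (ENSSSCG00000011309, chromosome 13, 27966586 to 28041473), ran from 0.594 through 3.41 to 8.38 RPKM in 1,25 NP veins, against 0.786 (P13), 2.60 (P14), 1.30 (P15), 2.57 (P16) and 0.950 (P17) RPKM in vehicle veins. For KIF15, 6 of 8 treated libraries exceeded the highest vehicle library (SE 0.45, limma, adjusted p = 0.795).

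The 4 spindle assembly genes measured had differences between 1.01 and 1.16. TPX2, which activates aurora A and nucleates microtubules near chromosomes (ENSSSCG00000007235, chromosome 17, 35431370 to 35484760), ran from 2.45 through 10.8 to 25.3 RPKM in 1,25 NP veins, against 3.63 (P13), 7.82 (P14), 3.04 (P15), 6.73 (P16) and 4.25 (P17) RPKM in vehicle veins. With the exception of P28, every treated library was at or above the highest vehicle value, by a narrow margin in P22 and P23 (7.83 and 7.88 RPKM), and the difference was 1.02 (SE 0.44, limma, adjusted p = 0.795). DLGAP5, which bundles spindle fibres, had 1.16 (SE 0.57), HMMR, a spindle and hyaluronan-binding protein, 1.10 (SE 0.49), and ASPM, which works at spindle poles, 1.01 (SE 0.49).

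Among condensin and chromosome structure genes all 5 measured members were higher, with a median of 0.94. TOP2A, the topoisomerase that untangles sister chromatids (ENSSSCG00000017473, chromosome 12, 22001336 to 22028454), was the most abundant of the list per length. It ran from 1.53 through 20.9 to 49.3 RPKM in 1,25 NP veins, against 2.68 (P13), 12.3 (P14), 4.53 (P15), 10.9 (P16) and 3.58 (P17) RPKM in vehicle veins. It also had the widest spread between animals, and its difference of 1.30 had an interval from -0.11 to 2.71 (limma, adjusted p = 0.795). NCAPG, a regulatory subunit of condensin I (ENSSSCG00000008747, chromosome 8, 12759639 to 12810050), ran from 0.292 through 2.31 to 4.34 RPKM in 1,25 NP veins, against 0.307 (P13), 1.34 (P14), 0.534 (P15), 1.03 (P16) and 0.534 (P17) RPKM in vehicle veins, a difference of 0.94 (SE 0.42). The core ATPases SMC2 and SMC4 had 0.95 (SE 0.51) and 0.69 (SE 0.46), and NCAPH, the kleisin of condensin I, 0.57 (SE 0.37).

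FOXM1, the transcription factor that drives many of these genes (ENSSSCG00000000739, chromosome 5, 67245694 to 67263211), was about level between the groups. It ran from 0.227 through 1.05 to 1.86 RPKM in 1,25 NP veins, and was at 0.972 (P13), 1.07 (P14), 0.344 (P15), 1.12 (P16) and 1.28 (P17) RPKM in vehicle veins. Only P24 exceeded the vehicle range, and P31 lay below it. The difference was 0.017 with an interval from -0.57 to 0.60 (limma, adjusted p = 0.984), and with 1 library left out it lay between -0.17 (without P15) and 0.16 (without P31).

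BUB1B and NUSAP1, recognised by identifier, were also higher in 1,25 NP veins, and neither passed in limma (adjusted p = 0.795). BUB1B, the checkpoint protein BUBR1 (ENSSSCG00000004782), had 7.01 ± 4.51 RPKM in 1,25 NP and 2.77 ± 1.56 in vehicle veins (SD, n = 8 and 5), a difference of 1.02 (SE 0.51). NUSAP1, which bundles microtubules near chromatin (ENSSSCG00000035544), had 7.64 ± 4.20 and 4.32 ± 1.45 RPKM in 1,25 NP and vehicle veins, a difference of 0.58 (SE 0.44).

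**Figure D4:**
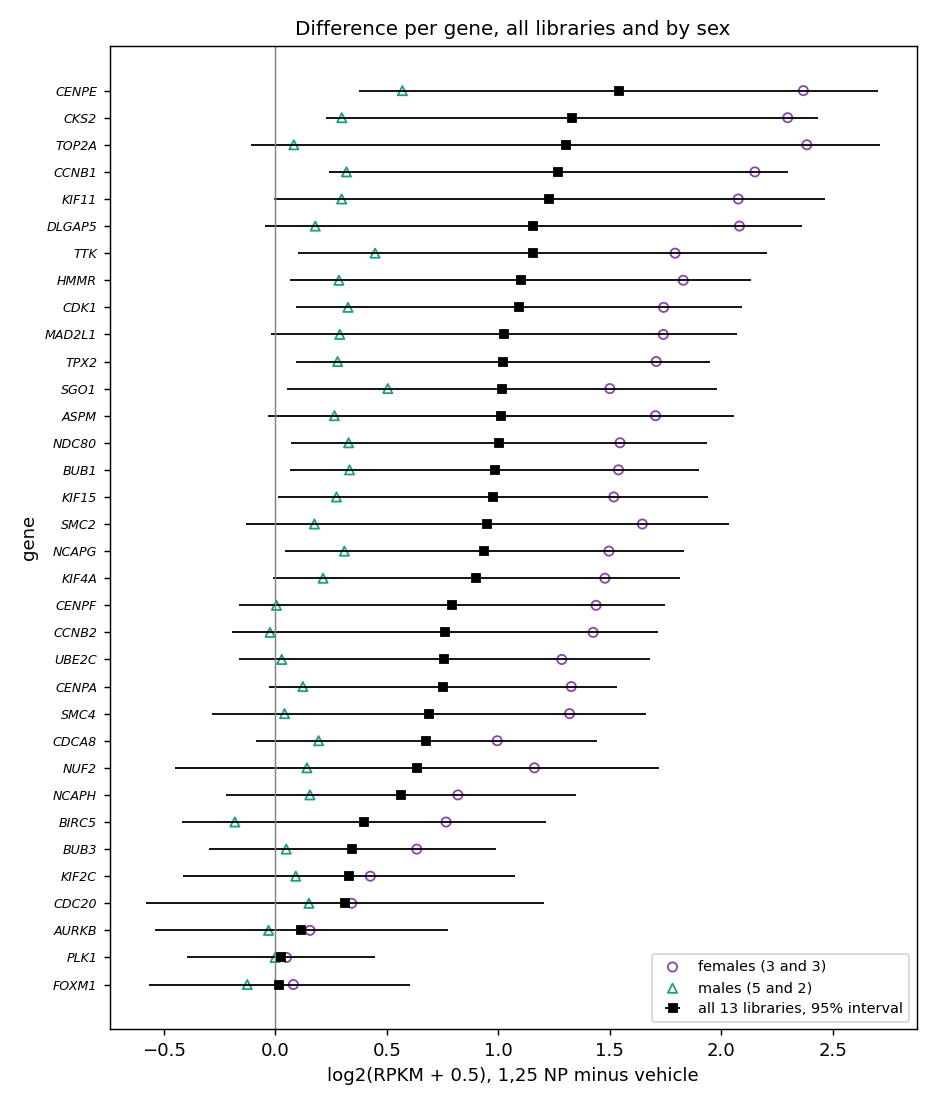
Difference of log2(RPKM + 0.5), 1,25 NP minus vehicle, for each of the 34 genes with its 95% interval from limma over all 13 libraries (black squares), and the same difference among females (open circles, 3 treated and 3 vehicle) and males (open triangles, 5 treated and 2 vehicle). All 34 squares lie above 0, from 0.017 for FOXM1 to 1.54 for CENPE, and each female circle lies to the right of its male triangle.

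The difference was larger among females than among males, though the difference between the sexes did not pass for any gene. In females the mean of the 34 genes was 2.28 ± 0.86 in 1,25 NP (SD, n = 3) and 0.91 ± 0.19 in vehicle veins (SD, n = 3), a difference of 1.38. In males it was 1.96 ± 0.96 in 1,25 NP (SD, n = 5) and 1.77 ± 0.12 in vehicle veins (SD, n = 2), a difference of 0.19. Both vehicle males, P14 and P16, lay above all 3 vehicle females. Fitted in females alone, 30 of the 34 genes passed the filter and all 30 were higher, against 50.4% of all genes tested, and in males alone 29 of 34 were higher, against 34.6%. At an unadjusted p under 0.05, 21 of the 30 were higher in females alone (5.74% of all genes tested) and 0 of 34 in males alone (0.126%), and none passed in either sex at an adjusted p of 0.05 in limma. The male difference minus the female difference was below 0 in all 34 genes, against 55.7% of all genes tested, and 0 of 34 passed in limma at an adjusted p of 0.05 (smallest 0.824, 0% of all genes tested) or at an unadjusted p of 0.05 (2.92% of all genes tested). Without P24 it was below 0 in 29 of 34, against 52.5% of all genes tested. P28, the lowest library of all, was a treated male. Without P28 the median of this sex difference over the 34 genes was -0.88, against -1.26 with all 13 libraries. Over all genes tested the same medians were -0.039 and -0.13. At the unadjusted level 5 genes were below 0 without P22 and 6 without P32, against 3.59% and 2.94% of all genes tested. The largest gap was for TOP2A, with differences of 2.38 among females and 0.083 among males. Sex was unevenly shared between the groups, and with sex as a covariate the mean difference of the 34 genes was 0.80.

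The 34 genes varied together between animals. Within groups, the median standard deviation per gene was 0.86 for the 34 and 0.59 for all genes tested. After the mean of the other 33 genes was subtracted in each library, the median over the 34 was 0.34, while subtracting the mean of the 34 from all genes tested gave 0.80. The standard deviation became smaller for 29 of 34 genes, against 28.1% of all genes tested. The smallest left was that of KIF4A, 0.12 against 0.82 before. It became larger for 5 genes: CDC20 (0.86 against 0.79), FOXM1 (0.75 against 0.47), KIF2C (0.640 against 0.639), AURKB (0.62 against 0.54) and PLK1 (0.60 against 0.25).

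Those 5 genes are among the 7 with differences below 0.5, with BUB3 and BIRC5. This set of 7 was formed after its values were seen and was not tested. The mean of the 7 was 0.82 in treated library P31 and 0.78 in vehicle library P15, the lowest of all 13, while the mean of the other 27 was 2.42 in P31 and 0.99 in P15. In P31, FOXM1 was at 0.227 and AURKB at 0.910 RPKM, each the lowest of 13, whereas CKS2 there was at 30.2 RPKM, the second highest. In P15, CDC20 was at 1.06, KIF2C at 0.617 and BIRC5 at 0.475 RPKM, each the lowest of 13. In P28, the 7 averaged 1.06 and the other 27 averaged 0.36, and in vehicle P13 the values were 1.20 and 0.57. Over the 34 genes, Spearman's rho of the difference was 0.37 with the mean RPKM and 0.14 with gene length, given as descriptions across genes that share all libraries.

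**Figure D5:**
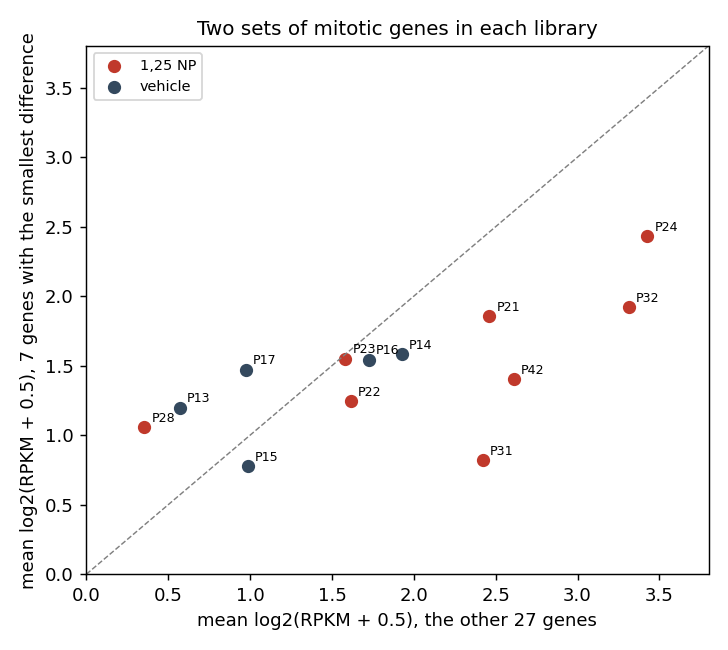
Each point is a library, with the mean log2(RPKM + 0.5) of the 27 other genes on the x axis and of the 7 genes with the smallest differences on the y axis (1,25 NP red, vehicle dark blue, the dashed line marks equal values). The 7 genes span 0.78 to 2.43 and the other 27 span 0.36 to 3.43, and P31 lies farthest below the line, at 2.42 and 0.82.

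Other mitosis genes, from a list of 93 that holds none of the 40, gave smaller differences in the same direction. Of 85 that passed the filter, 75 were higher and 10 lower in 1,25 NP veins, with a median of 0.37, and 13 were higher and 0 lower at an unadjusted p under 0.05. Over all genes tested, 43.8% were above 0, and at that level 0.803% were higher and 3.21% lower. None passed in limma (0 of 85 at an adjusted p of 0.05). SKA1, which couples kinetochores to microtubules, averaged 2.16 ± 1.55 RPKM in 1,25 NP and 0.571 ± 0.234 in vehicle veins (SD, n = 8 and 5), a difference of 1.10 (SE 0.40). OIP5, which helps to load CENPA and whose coordinates overlap NUSAP1, had 0.844 ± 0.408 and 0.333 ± 0.136 RPKM in 1,25 NP and vehicle veins (difference 0.65, SE 0.24), and SKA2, a partner of SKA1, 5.70 ± 2.24 and 3.28 ± 0.808 (difference 0.66, SE 0.28). The smallest p-values among those lower in 1,25 NP belonged to NUMA1, a spindle pole protein (-0.72, SE 0.49), FZR1, the CDH1 activator of the anaphase-promoting complex (-0.51, SE 0.38), and MAD1L1, the checkpoint partner of MAD2 (-0.38, SE 0.33).

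S phase genes, those of DNA replication and nucleotide supply, had 27 of 34 tested members higher and 7 lower, with a median of 0.36, and 0 passed in limma at an adjusted p of 0.05 (3 higher and 0 lower at an unadjusted p under 0.05). These stand against the same 43.8%, 0.803% and 3.21% of all genes tested. TYMS, thymidylate synthase, had a difference of 1.03 (SE 0.37), GINS1, a subunit of the replicative helicase, 0.80 (SE 0.31), and CCNE1, a G1/S cyclin, 0.56 (SE 0.23). Among those lower were RFC2, a clamp loader subunit (-0.24, SE 0.30), the helicase subunit GINS3 (-0.28, SE 0.36) and the flap endonuclease FEN1 (-0.18, SE 0.43). The list mean per library was 2.02 ± 0.42 in 1,25 NP and 1.70 ± 0.27 in vehicle veins (SD, n = 8 and 5), and P24 and P32 again had the highest values, 2.63 and 2.49. No test of the difference between these lists and the 34 genes was made.

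Markers of vein wall and blood cells were read in the same libraries. MYH11, the smooth muscle myosin, was at 12.8 to 471 RPKM in 1,25 NP and 51.4 to 852 in vehicle veins, and PECAM1, of endothelium, at 34.8 to 86.1 and 51.7 to 94.1 RPKM. In 1,25 NP and vehicle veins, summed RPKM ran from 352 to 4118 and from 431 to 5728 for contractile smooth muscle (0 of 10 genes with a higher mean in 1,25 NP), and from 9687 to 41460.3 and from 14786 to 52221 for fibroblasts (4 of 10). They ran from 112 to 238 and from 177 to 240.1 for endothelium (2 of 9), and from 370 to 980 and from 333 to 1665 for macrophages (2 of 9). T and NK cell sums were 18.3 to 81.7 and 26.9 to 112 (3 of 10), B and plasma cell sums 28.0 to 53.1 and 31.2 to 58.0 (1 of 8), and erythrocyte sums 5.82 to 69.0 and 18.6 to 4403 (0 of 7). No marker was at 0 in every library. P28 and P13, the libraries with the lowest mitotic means, had the highest fibroblast sums, 41460.3 and 52221 RPKM. P28 also had the highest smooth muscle sum of the treated libraries. COL3A1, a gene of the fibroblast list, alone took 9.17% of recovered reads in P28 and 11.1% in P13. In P23 it took 9.64%, with a fibroblast sum of 38240 RPKM and a mitotic mean of 1.57. Vehicle libraries P15 and P17, next lowest in mitotic mean at 0.94 and 1.08, did not follow P28 and P13. Their fibroblast sums were 19930.5 and 14786 RPKM, the latter the lowest in vehicle, and COL3A1 took 4.26% and 3.97% of recovered reads. The part of these markers and read shares in the differences of mitotic genes was not tested.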

How the data were processed

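RNA from vein was sequenced in 13 libraries made with the TruSeq V2 kit, per the labels' protocols. The submitters' processing notes name a mouse build, which the pig identifiers contradict. No source used here gives the aligner, counter, pig build or strand setting. The header states no unit, and the deposited values were taken to be RPKM, read counts normalized by the authors to gene length and library total, as inferred from the values. Multiplied by length plus 1 and by a library total derived from the smallest value, 100% of them came out as whole reads (tolerance 0.001 reads). Other deposited columns, such as gene length, served that recovery and positions. Columns carry a group, a sex and an animal code but no replicate number.

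The test was limma 3.58.1 in R 4.3.3, with its trend option, on log2 values after adding 0.5. Genes entered when over 0.5 RPKM in 5 or more libraries, and p-values were adjusted by Benjamini-Hochberg over all genes entered. The pseudocount understates changes of low genes. The difference between sexes is an interaction term. The fit was also run on simulated data, and no outcome of that run is given here. It is not taken as evidence on how the fit behaves for genes that vary together between animals, as the mitotic genes did. No source says how the animals were raised or handled, so p-values measure only the spread between these libraries. The members and lists were chosen with earlier results of these data known. Library values are given for the smallest p in each role, the 3 most abundant genes and CCNB1, CDK1, TOP2A and FOXM1. Genes given in detail beyond those, such as CDC20, PLK1 and AURKB, were chosen after their values were seen. Overlapping genes may share reads, so values are uncertain for CDK1 (with RHOBTB1), FOXM1 (RHNO1), NCAPG (LCORL), BIRC5 (TK1), SMC4 (TRIM59), KIF15 (KIAA1143), NCAPH (ITPRIPL1), KIF4A (PDZD11) and NUSAP1 (NDUFAF1 and OIP5). Alternatives were the pseudocount, filter, scaling, voom on recovered reads with and without quality weights, sex as a covariate, each sex alone, and each library left out.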

Additional observations from a re-analysis of the deposited data

Results flagged for a closer look

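In a screen of 36 genes and their mean in both groups, 74 sets of values in all, 3 values stood apart from the rest of their group by a gap large beside the group's range. Chance gives such a value in about 1 set in 20. CENPE was at -0.017 on the log2(RPKM + 0.5) scale in 1,25 NP library P28, below the other 7 treated libraries. CDC20 was at 0.64 and FOXM1 at -0.25 in vehicle library P15, below the other 4 vehicle libraries.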

How the results depend on the processing

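No paired analysis was possible because the columns carry no replicate number. Of 824 member values under 23 alternatives, 808 kept their sign. These values include those of BUB1B and NUSAP1. The filter alternatives cannot change a difference, so the signs there were fixed in advance. The genes varied together and most alternatives share the same libraries, so the values are not independent. In males alone the differences were -0.024 for CCNB2, -0.031 for AURKB, -0.00092 for PLK1, -0.18 for BIRC5, -0.018 for NUSAP1 and -0.13 for FOXM1, and with sex as a covariate FOXM1 had -0.020. With 1 library left out the differences ran from -0.018 to 0.28 for AURKB, -0.044 to 0.083 for PLK1 and -0.17 to 0.16 for FOXM1. The cause was not tested. In limma, 0 of the 34 genes passed an adjusted p of 0.05 in any fit of the treatment difference or of the difference between the sexes. For the treatment difference over the whole table, 0 genes passed with each library but vehicle P17 left out and 1 without P17. For the difference between the sexes, 3 genes of the whole table passed with a pseudocount of 1, 5 without the filter, 5 with voom and quality weights, 2 without P42, 3 without P15 and 1 without P16. At an unadjusted p under 0.05 the 12 genes were 6 without the filter on low values (0.696% of all genes tested higher), 6 with voom (0.631%), 24 with voom and quality weights (5.82%), 24 with median-of-ratios scaling (3.31%), 5 with sex as a covariate (0.61%), 21 in females alone (5.74%) and 0 in males alone (0.126%), and 1 to 27 with 1 library left out. The number higher ran from 31 to 34 of 34 with 1 library left out. Of all genes tested, 34.7% (without P13) to 49.5% (without P28) were then higher. The mean difference of the 34 genes ran from 0.67 without P24 to 1.05 without P28. The lowest member value rests on 17 reads, so depth limits SGO1 in P28 most.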
